A study of Mus musculus with 30 samples.

Results

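Adipokines are hormones that fat cells secrete, and 9 genes of this system were followed here through bone marrow and adipose tissue of leukemia-prone, obese mice: the adipokines Lep, Adipoq, Cfd, Retn, Rbp4 and Nampt, and the receptors Lepr, Adipor1 and Adipor2. They were taken by symbol from the gene columns of both count tables. All 9 were among the 17059 genes of the adipose table and 7 among the 13353 genes of the bone marrow table, which does not list Lep or Rbp4; 13076 genes were in both. The genes were chosen by name and not by a measured value, though with earlier results of these data known.

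The study transplanted bone marrow from Shp2E76K/+;LysM-Cre+ donors (CD45.2+, an activating Shp2 allele switched on by a Cre that is driven in myeloid cells) together with an equal number of Boy/J CD45.1+ competitor cells into lethally irradiated recipients (700 + 400 cGy). Recipients were wild-type C57BL/6 mice, the WT group, or leptin-deficient Ob/Ob mice on a C57BL/6J background. From 8 weeks after transplantation the Ob/Ob recipients were treated for 30 days. They received Vehicle, subcutaneous beinaglutide, which activates the GLP-1 receptor and is called the GLP-1R agonist here, at a dose of 3 mg/kg, intraperitoneal antibody against IL-17A (anti-IL-17A) at 200 µg per animal and 3 times a week, or both agents (Combo). RNA came from whole bone marrow cells (BM) and from F4/80+ cells sorted out of visceral adipose tissue (adipose tissue macrophages, ATM), with 3 mice per group and tissue, 30 libraries in all. The labels give an age of 12 to 14 weeks, and the mice were of both sexes. With treatment from 8 weeks after transplantation and for 30 days, that range is not read here as the age at sampling. By this description every group shares irradiation and a transplant. No treatment course is stated for the WT group, which thus differs from Vehicle in more than recipient genotype, and the labels do not give the donor cells behind each single library. Blood cells in Ob/Ob recipients descend from donors with intact Lep, whereas the recipients' own fat and stromal cells carry the Ob allele, a nonsense allele that is still transcribed.

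Library totals ran from 31086184 to 39925495 counts in BM and from 24876074 to 45300263 in ATM. The ATM Vehicle libraries stood apart from the other ATM libraries and against their label: Adgre1, which encodes F4/80 itself, was at 1002 to 1738 normalized counts in them against 6387 to 7619 in WT and 12445 to 13372, 28678 to 29674 and 13111 to 13434 in the GLP-1R agonist, anti-IL-17A and Combo libraries. Csf1r, the macrophage growth factor receptor, was at 1274 to 1804 in Vehicle and 17624 to 18458 in WT. The neutrophil gene S100a8 ran the other way, at 306939 to 329581 in Vehicle, 119394 to 124017 in Combo and 1848 to 1992 in WT. The summed level of 8 endothelial markers was 3956 to 4093 CPM (counts scaled to library size) in Vehicle and 844 to 856 in WT, and that of 6 epididymis markers, the organ next to the male visceral fat pad, was 3435 to 3568 CPM in WT and 0.403 to 1.68 in Vehicle, where Lcn5, Rnase9, Adam7 and Cst8 were at 0. The summed level of 11 pancreatic acinar markers was 1331 to 1336 CPM in the Combo libraries and 7.61 to 13.7 in Vehicle. As a whole list, 9 neutrophil markers summed to 19401 to 20692 CPM in Vehicle, 10208 to 10438 in Combo and 469 to 484 in WT. The 12 macrophage markers summed to 3453 to 3698 in Vehicle, 4917 to 5192 in WT and 16637 to 16852 with the antibody. In Vehicle against WT 5 of them were lower, 3 higher and 4 neither at the limits given below (median log2 fold change -0.62). Adgre1 and Csf1r thus fell further than the list. Since all 3 libraries of a group shared these features, they cannot be told apart from the group, and each ATM comparison below compares cell mixtures as well as conditions. In bulk samples such as these, fewer cells of a type and less RNA per cell cannot be told apart.

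Leptin, encoded by Lep, is released in proportion to fat mass and acts through the cytokine receptor Lepr, whose long form signals through JAK2 and STAT3 and induces its own inhibitor Socs3. Adiponectin (Adipoq) falls in obesity and acts through Adipor1 and Adipor2, receptors with ceramidase activity that feed into AMPK and PPAR-alpha. Adipsin, complement factor D (Cfd), is the serine protease that cleaves factor B to start the alternative complement pathway; resistin (Retn) is in the mouse mainly a fat cell product; Rbp4 carries retinol in blood; and Nampt, also called visfatin, is the rate-limiting enzyme of NAD salvage from nicotinamide. In bone marrow, Lepr and Adipoq mark the CXCL12-abundant reticular cells, the stromal cells that hold stem cells in their niche.

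In GRCm38 (mm10) coordinates Lep lies on chromosome 6, 29060220 to 29073877 (+ strand), Adipoq on chromosome 16, 23146536 to 23158028 (+ strand), Cfd on chromosome 10, 79890853 to 79892655 (+ strand), Retn on chromosome 8, 3655770 to 3660110 (+ strand) and Rbp4 on chromosome 19, 38116629 to 38125281 (- strand); none of the 9 members shares exonic bases with another annotated gene. The 250 bases before the RefSeq start of each (GRCm38.p6, 5′ to 3′ on the gene's strand) are shown because Adipoq, Cfd, Retn and Rbp4 were all lower and Lep was higher in the Vehicle than in the WT adipose libraries; RefSeq gives 2 starts for Rbp4, and the window before the outer one is shown, since the other overlaps an exon. Capitals mark matches, on either strand, to TTGCNNAA (the core bound by C/EBP factors, which drive fat cell genes), CCAAT or TATAA.
Lep, chr6:29059971-29060220: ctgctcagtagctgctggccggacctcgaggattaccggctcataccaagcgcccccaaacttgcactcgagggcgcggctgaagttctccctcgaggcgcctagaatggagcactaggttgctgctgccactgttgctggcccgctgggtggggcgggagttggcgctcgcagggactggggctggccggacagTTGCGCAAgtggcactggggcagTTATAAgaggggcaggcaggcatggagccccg
Adipoq, chr16:23146286-23146535: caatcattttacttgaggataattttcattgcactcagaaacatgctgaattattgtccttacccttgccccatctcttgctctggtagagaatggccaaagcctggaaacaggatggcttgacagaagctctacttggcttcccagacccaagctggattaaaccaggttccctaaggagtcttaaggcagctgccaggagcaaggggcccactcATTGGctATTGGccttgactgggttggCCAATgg
Cfd, chr10:79890603-79890852: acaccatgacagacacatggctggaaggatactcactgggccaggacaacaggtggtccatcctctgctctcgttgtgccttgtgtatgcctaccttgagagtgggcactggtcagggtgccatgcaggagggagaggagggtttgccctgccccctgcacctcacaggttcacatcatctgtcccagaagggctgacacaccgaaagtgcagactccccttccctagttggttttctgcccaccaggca
Retn, chr8:3655520-3655769: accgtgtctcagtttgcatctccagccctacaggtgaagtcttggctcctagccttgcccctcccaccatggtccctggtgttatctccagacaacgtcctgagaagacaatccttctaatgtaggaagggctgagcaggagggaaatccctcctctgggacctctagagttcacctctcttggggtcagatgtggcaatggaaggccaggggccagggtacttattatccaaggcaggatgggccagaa
Rbp4, chr19:38125322-38125571: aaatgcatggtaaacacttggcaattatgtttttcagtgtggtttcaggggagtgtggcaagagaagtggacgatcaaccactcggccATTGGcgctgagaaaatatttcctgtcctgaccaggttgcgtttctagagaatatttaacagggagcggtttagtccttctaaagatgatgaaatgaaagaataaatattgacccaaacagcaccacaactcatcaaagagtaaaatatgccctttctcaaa
The Lep window held TTGCGCAA, which matches TTGCNNAA on both strands and begins 55 bases before the start, and a TATAA match beginning 31 bases before it that overlaps a match on the other strand. The Adipoq window held 3 CCAAT matches, beginning 34, 27 and 7 bases before the start, and the Cfd and Retn windows held none of these letters. The Rbp4 window shown held a CCAAT match beginning 162 bases before its start, and the one not shown a TTGCNNAA match beginning 128 bases and a TATAA match beginning 28 bases before its start. Among 32851 mouse promoter windows of this length, 9.56% held TTGCNNAA, 33.8% CCAAT and 22.8% TATAA.

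Per length of transcript (RPKM, reads scaled by exon length and library size, which allows levels of different genes to be set side by side), Adipor1 had the highest level of the members in both tissues, with Nampt next in WT marrow and Cfd next in WT adipose cells. In WT marrow Adipor1 stood at 73.4 ± 1.05 RPKM (SD, n = 3), Nampt at 28.2 ± 1.29 and Adipor2 at 25.5 ± 0.334, while Adipoq was at 2.79 ± 0.317, Lepr at 0.516 ± 0.0892, Cfd at 0.468 ± 0.203 and Retn at 0.342 ± 0.1. WT adipose cells had 96.4 ± 0.583 RPKM of Adipor1 and 96.1 ± 4.2 of Cfd, the highest of the adipokines there, followed by Nampt at 25.6 ± 1.43 and Adipoq at 19.3 ± 0.806. Rbp4 at 9.58 ± 0.624, Retn at 7.71 ± 0.47, Lepr at 3.42 ± 0.675, Adipor2 at 3.14 ± 0.0895 and Lep at 2.16 ± 1.03 RPKM were lower. In the Vehicle adipose cells that order differed: Cfd was at 3.08 ± 2.22 RPKM and Lep at 9.33 ± 3.58.

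Below, levels are normalized counts (counts scaled by each library's effective size to the mean library of its tissue), and a gene is called changed, risen or fallen, when the Benjamini-Hochberg adjusted p of edgeR's quasi-likelihood test over all genes of the table is under 0.05 and the log2 fold change is beyond 1 in size. Differences among the 5 groups passed that adjusted p for 6 of the 7 members in BM, all but Cfd (adjusted p = 0.183), where 95.1% of all genes passed, and for 9 of 9 in ATM, where 73.5% did. In Vehicle and Combo against WT and each treatment against Vehicle, 72.8 to 76.6% of all genes in BM passed the adjusted p. In ATM 41.1 to 58.1% did. The share of all genes whose libraries did not overlap between 2 groups was not computed. A lack of overlap below is thus a description only.

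The Vehicle-treated Ob/Ob recipients were first set against the lean WT recipients, both with a transplant by the description above. In the marrow of Vehicle-treated Ob/Ob recipients 2 of 7 members fell and none rose, against 10% of all genes called lower and 9.44% called higher. Lepr fell most. It was at 152, 110.1 and 118 normalized counts in WT and 42, 36.5 and 20.4 in Vehicle marrow. All 3 Vehicle libraries lay below all 3 WT libraries, 3.83-fold apart (log2 fold change -1.94 ± 0.20 SE, adjusted p = 4.33e-11). Adipoq, which the same stromal cells make, was at 147, 138 and 117 in WT and 81.6, 52.6 and 70.8 in Vehicle. Its groups did not overlap either, and its change was just short of the fold limit (log2 fold change -0.98 ± 0.16 SE, adjusted p = 1.3e-06); without WT replicate 3 it was -1.07 and without Vehicle replicate 1 it was -1.13, both past the limit. Retn, with 5 to 23 raw counts per library, was at 13.9, 17.9 and 24.8 in WT and 6.8, 5.37 and 6 in Vehicle and fell (log2 fold change -1.60 ± 0.52 SE, adjusted p = 0.00585).

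Nampt went the other way in marrow. Its level was 5214, 4789 and 4867 in WT and 8813, 8502 and 8269 in Vehicle, without overlap and 1.72-fold higher, which is under the fold limit (log2 fold change 0.78 ± 0.03 SE, adjusted p = 8.91e-23). Cfd, with 9 to 35 raw counts per library in both groups, was at 7.79, 16.9 and 20.5 and 22.7, 19.3 and 42, overlapping (log2 fold change 0.91 ± 0.38 SE, adjusted p = 0.0297); its log2 fold change passed 1 when WT replicate 2 or 3 or Vehicle replicate 1 or 2 was left out, ranging from 1.03 to 1.19 over those 4 fits. The adiponectin receptors moved little. Adipor1 was at 12847 ± 183 in WT and 10392 ± 162 in Vehicle (mean ± SD, n = 3; log2 fold change -0.31), and Adipor2 at 5302 ± 69.6 and 5237 ± 29.7, with a 95% interval of the log2 difference from -0.07 to 0.04.

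The marrow stromal markers moved with Lepr. Of 10 markers of CXCL12-abundant reticular cells in the table, 6 were called lower and 1 higher in Vehicle against WT, and their median log2 fold change was -1.25 against -0.02 over all genes. Cxcl12, the chemokine that retains stem cells, ran from 2749.8 to 2827 in WT and 788 to 875 in Vehicle (log2 fold change -1.75 ± 0.05 SE, adjusted p = 1.07e-30), and Kitl, the stem cell factor gene, from 136 to 171 in WT and 36.3 to 74.1 in Vehicle. Ebf3, a transcription factor of these cells, had at most 5.67 normalized counts in a Vehicle library and at least 24.8 in a WT library. Hp, which is in the list but is also a neutrophil granule gene, rose and carries most of the list's summed level (1606 to 1676 CPM in WT, 4112 to 4283 in Vehicle). Of the 18 fat cell markers 10 were in the marrow table, which does not list Plin1, Adrb3 or Ucp1. Among those 10, 1 rose and 3 fell, with Fabp4 at 811 to 899 in WT and 210.5 to 259 in Vehicle. Whether the number of stromal cells accounts for the fall of Lepr was not tested.

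**Figure D1:**
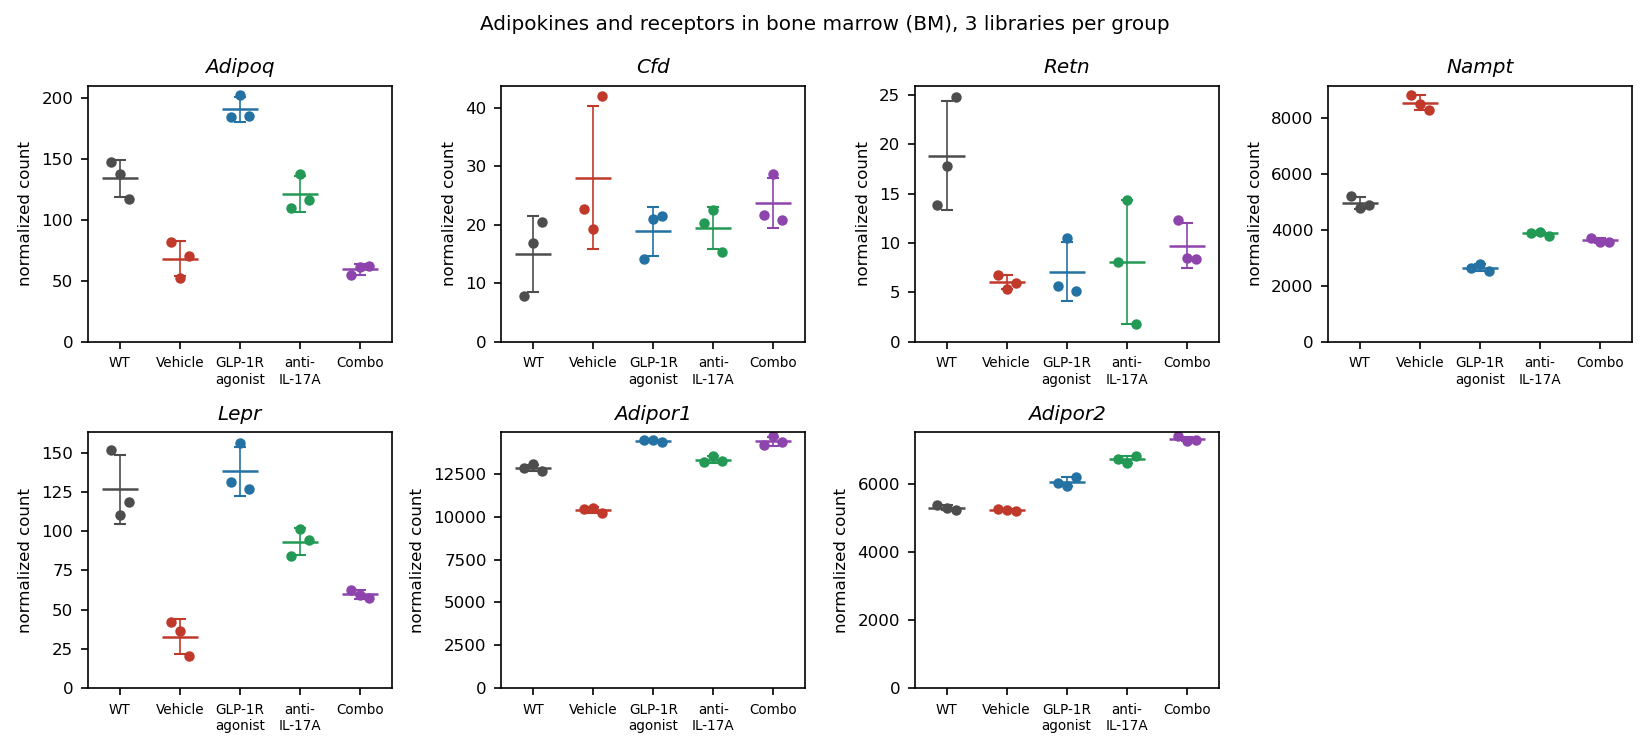
Normalized counts (linear axis from 0) of the 7 members in the bone marrow table, by group; points are the 3 libraries, horizontal lines the means and bars the SD. Lepr and Adipoq are low in Vehicle and Combo, and Nampt is highest in Vehicle, at 8269 to 8813.

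Each single treatment of the Ob/Ob recipients was then set against Vehicle in marrow. With the GLP-1R agonist 2 members rose, Lepr and Adipoq, and 1 fell, Nampt, against 7.6% of all genes called higher and 9.08% lower. Lepr in the GLP-1R agonist libraries was at 131, 156 and 127, above every Vehicle library by a wide margin (log2 fold change 2.05 ± 0.20 SE, adjusted p = 7.31e-12) and not distinguishable from WT (adjusted p = 0.501, interval of the log2 difference -0.20 to 0.44). Adipoq reached 185, 202 and 185, 2.8-fold the Vehicle level (log2 fold change 1.48 ± 0.16 SE, adjusted p = 6.05e-11) and above all 3 WT libraries (log2 fold change 0.50, adjusted p = 0.00139). Nampt was at 2629, 2792 and 2530.3, its lowest level in marrow and 3.22-fold below Vehicle (log2 fold change -1.68 ± 0.04 SE, adjusted p = 1.35e-33).

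Cell type markers rose with Lepr and Adipoq: 5 of 10 reticular stromal markers were called higher and 1 lower (median log2 fold change 0.98), and 6 of 10 fat cell markers higher and 1 lower (median 1.37). Their part in these rises was not tested.

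With the anti-IL-17A antibody Lepr rose and Nampt fell, 1 member each way, against 7.65% of all genes called higher and 8.46% lower. Lepr was at 84.2, 102 and 94.3, between Vehicle and WT (log2 fold change 1.49 ± 0.21 SE, adjusted p = 5.72e-08), and Nampt at 3897, 3913 and 3789.7 (log2 fold change -1.14 ± 0.03 SE, adjusted p = 4.33e-28). Adipoq, at 109.6, 138 and 116, was above Vehicle without overlap but under the fold limit (log2 fold change 0.83 ± 0.17 SE, adjusted p = 2.68e-05). Here too 5 of 10 reticular stromal markers were called higher and 1 lower, and 4 of 10 fat cell markers higher and none lower.

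The Combo marrow did not carry the Adipoq level of either single treatment. Only Nampt was called against Vehicle, where it fell to 3716, 3569 and 3572 (log2 fold change -1.24 ± 0.03 SE, adjusted p = 3.45e-29), and none rose, against 11.1% of all genes called lower and 6.58% higher. Adipoq was at 54.5, 61.4 and 62.6, overlapping Vehicle (log2 fold change -0.19 ± 0.19 SE, adjusted p = 0.353) and below every library of the GLP-1R agonist (log2 fold change -1.68, adjusted p = 2.86e-12) and of the antibody (log2 fold change -1.03, adjusted p = 1.88e-06). Lepr was at 62.8, 59.3 and 57.4, above the Vehicle libraries by less than the fold limit (log2 fold change 0.85 ± 0.23 SE, adjusted p = 0.0012; 1.05 without Vehicle replicate 1) and below the GLP-1R agonist (log2 fold change -1.21, adjusted p = 1.37e-07) and antibody groups (log2 fold change -0.64, adjusted p = 0.00377). Cxcl12, at 1078 to 1183 in Combo and 3911 to 4164 in the GLP-1R agonist group, kept the same order of groups as Lepr and Adipoq apart from the position of Combo against Vehicle in Adipoq. Kitl, at 40.7 to 50.4 in Combo, did not differ detectably from Vehicle (log2 fold change -0.17, adjusted p = 0.529), and Hp was lower than in Vehicle (log2 fold change -0.66). Of 10 reticular stromal markers 1 was called higher in Combo than in Vehicle and none lower (median log2 fold change 0.32). Adipor1 and Adipor2 stood above Vehicle in each of the 3 treated groups by log2 fold changes of 0.21 to 0.48, under the fold limit but without overlap in any of these 6 comparisons, at an SD between libraries of at most 2.3% of the mean in any group. Of all genes 72.8 to 73.8% passed the adjusted p in these contrasts.

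Against WT, Combo marrow had lower Adipoq (log2 fold change -1.18 ± 0.17 SE, adjusted p = 4.53e-08) and lower Lepr (log2 fold change -1.09 ± 0.18 SE, adjusted p = 1.19e-06), 2 of 7 members lower and none higher, where 9.93% of all genes were called lower and 4.4% higher. The Lepr call rests on WT replicate 1, without which its log2 fold change was -0.93. Retn, at 12.3, 8.47 and 8.35 in Combo, was not called (log2 fold change -0.92 ± 0.47 SE, adjusted p = 0.0722), though it was without WT replicate 1 (-1.11, adjusted p = 0.0394).

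In the adipose cells the comparison of Vehicle with WT changed 6 of 9 members: Lep and Adipor2 rose, and Cfd, Retn, Rbp4 and Adipoq fell, against 12.5% of all genes called higher and 22.9% lower, with a median log2 fold change of -0.21 over all genes. The largest change was that of Cfd. It was at 3088, 2859 and 2873 normalized counts in WT and 81.5, 33.8 and 168 in Vehicle, 31.2-fold lower and with a spread between Vehicle libraries of 72% of their mean (log2 fold change -4.97 ± 0.37 SE, adjusted p = 1.15e-08). Retn fell from 429.9, 381 and 402 to 84.2, 107 and 160.2 (log2 fold change -1.79 ± 0.32 SE, adjusted p = 0.000183). Adipoq fell from 888, 923 and 849 to 401, 373 and 358 (log2 fold change -1.23 ± 0.17 SE, adjusted p = 1.62e-05), and Rbp4 from 401, 457 and 423 to 164, 132 and 181 (log2 fold change -1.42 ± 0.36 SE, adjusted p = 0.00325). For each of these 4 hormones every Vehicle library lay below every WT library.

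Lep, the hormone that Ob/Ob recipients cannot make in functional form, had more transcript in their adipose cells. Its level was 120.3, 254 and 348 in WT and 892, 1488 and 733 in Vehicle, 4.31-fold higher (log2 fold change 2.11 ± 0.33 SE, adjusted p = 5.66e-05). The libraries of both groups scattered widely, by 47.5% of the mean in WT and 38.3% in Vehicle, but did not overlap. The counts do not separate transcripts of the Ob allele from those of an intact allele, so the table does not say whether graft-derived or recipient cells gave these reads.

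Markers of fat cells did not move as one with these hormones. Of 18 markers, 2 rose and 5 fell in Vehicle against WT, with a median log2 fold change of -0.32. Cidec, a lipid droplet protein of fat cells, was at 1998 to 2208 in WT and 844 to 1132 in Vehicle (log2 fold change -1.04 ± 0.14 SE, adjusted p = 1.01e-05). Car3, an abundant fat cell enzyme, was at 11467 to 11747 and 2689 to 3098 (log2 fold change -1.98 ± 0.07 SE, adjusted p = 1.13e-12). Adrb3 had 93.6 to 159.6 in WT and was at 0 in 2 of 3 Vehicle libraries, but was not called (log2 fold change -4.52 ± 1.93 SE, adjusted p = 0.0585). Plin1, which coats the fat droplet, was at 145 to 176 and 77.8 to 196, overlapping (log2 fold change -0.18 ± 0.42 SE, adjusted p = 0.74). Fabp4, which endothelial cells and macrophages also express, went from 32815 to 33229 to 130126 to 138466 and the summed level of the whole list, Fabp4 included, was 3799.9 to 3858 CPM in WT and 6627 to 7037 in Vehicle. Fibroblast and mesothelial markers fell in 11 of 14 cases, with Msln at 5708 to 6040.2 in WT and 147 to 197 in Vehicle. How much of the hormone transcripts came from fat cells or stroma carried into the sort was not tested.

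The receptors were higher in Vehicle than in WT adipose cells. Adipor2 rose from 619, 608 and 643 to 1635, 1794 and 1349 (log2 fold change 1.35 ± 0.13 SE, adjusted p = 2.14e-07). Lepr, at 713, 981 and 703 in WT and 1385, 1379.7 and 1741 in Vehicle, did not overlap but stayed under the fold limit (log2 fold change 0.91 ± 0.21 SE, adjusted p = 0.00181; 1.08 without WT replicate 2). Adipor1 was at 15986, 16054 and 16178 and 25540.0, 26880.1 and 26766 (log2 fold change 0.72 ± 0.03 SE, adjusted p = 4.37e-11), and Nampt at 4405, 4018 and 4456 and 7131, 6992 and 7181 (log2 fold change 0.73 ± 0.07 SE, adjusted p = 3.74e-07). Both stayed under the fold limit with groups well apart.

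**Figure D2:**
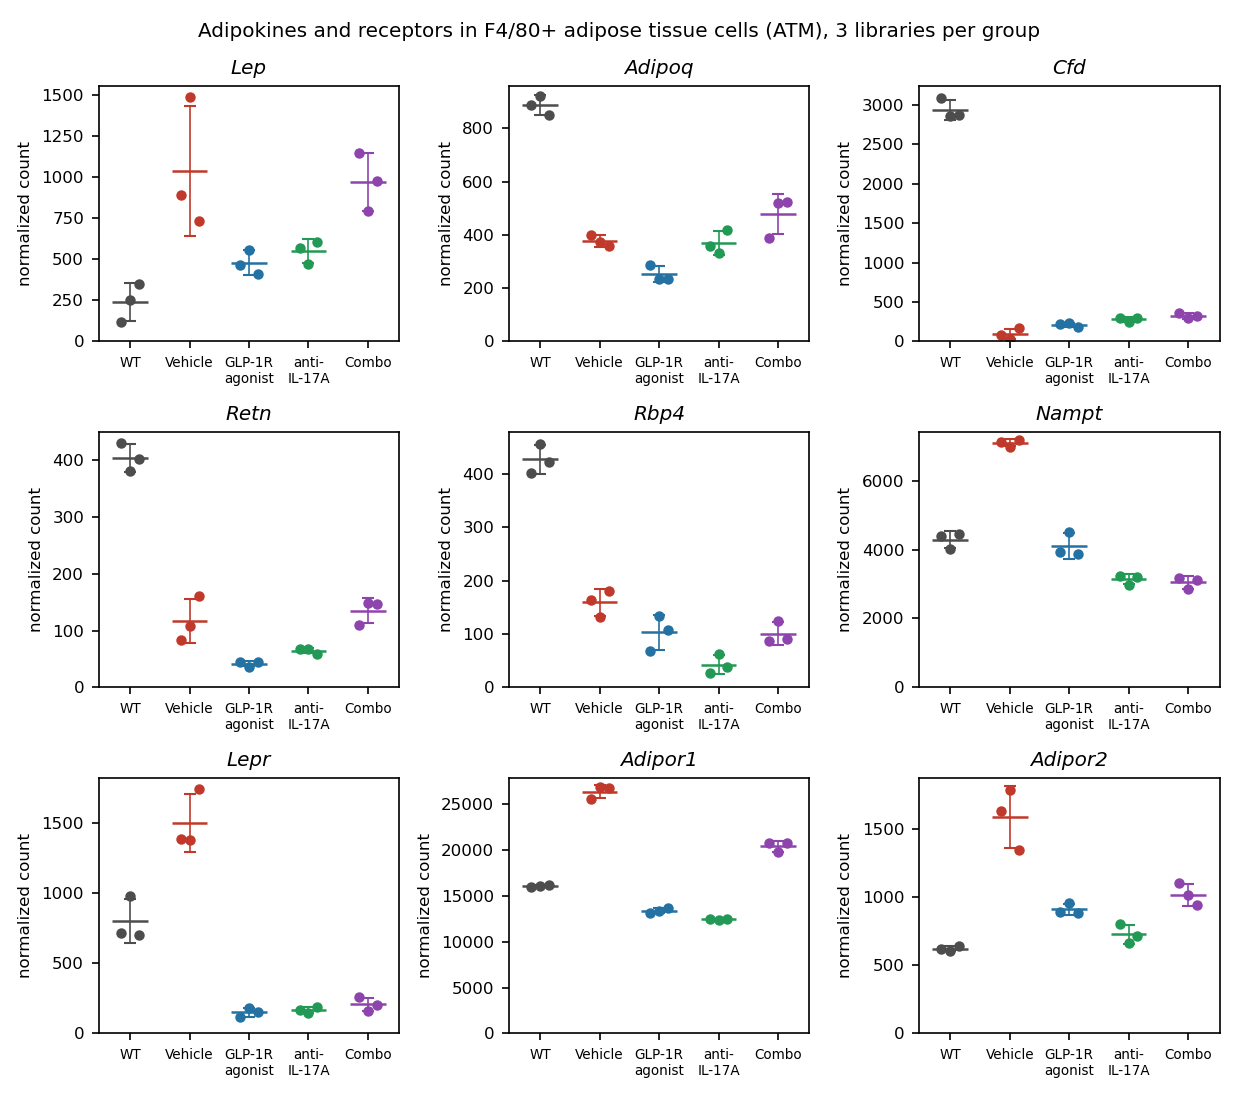
Normalized counts (linear axis from 0) of the 9 members in the sorted F4/80+ adipose cells, by group; points are the 3 libraries, horizontal lines the means and bars the SD. Cfd lies at 2859 to 3088 in WT and under 400 elsewhere, Lepr is high in WT and Vehicle only, and Lep is highest in Vehicle and Combo.

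The treated adipose groups were all set against the same Vehicle libraries, whose cell mixture stood apart as given above. Against these, Lepr had the largest log2 fold change of the members in each treated group, and it was lower each time. It was at 115, 180.2 and 150.1 with the GLP-1R agonist, 168, 148 and 191 with the antibody and 257, 163 and 201 in Combo, that is 10.1-fold (log2 fold change -3.34 ± 0.23 SE, adjusted p = 7.06e-09), 8.87-fold (log2 fold change -3.15 ± 0.23 SE, adjusted p = 1.04e-08) and 7.26-fold below Vehicle (log2 fold change -2.86 ± 0.23 SE, adjusted p = 3.53e-08). The 3 treated groups lay below WT as well, with Combo against WT at a log2 fold change of -1.95, adjusted p = 3.08e-06, and they could not be told apart from each other (adjusted p = 0.377 between Combo and the antibody, 0.584 between the antibody and the GLP-1R agonist, and 0.0997 between Combo and the GLP-1R agonist, where the interval of the log2 difference was 0.01 to 0.95). The endothelial markers moved with Lepr between Vehicle and the treated groups. Of the 8 markers, 5, 5 and 6 were called lower than in Vehicle with the GLP-1R agonist, the antibody and Combo, and 1 of 8 was called lower in Combo than in WT. Their summed level was 3956 to 4093 CPM in Vehicle, 940.2 to 976 with the GLP-1R agonist, 830.3 to 892 with the antibody, 737 to 826 in Combo and 844 to 856 in WT. Cdh5, the cadherin of endothelial junctions, was at 18850.1 to 23450.0 in Vehicle, 2620.3 to 3025 in Combo and 2424 to 2817 in WT. Emcn, an endothelial surface mucin, was at 8148 to 8441 in Vehicle, 1271 to 1570 with the antibody, 757 to 982 in Combo and 1647 to 1829 in WT. It was the 1 marker called lower in Combo than in WT (log2 fold change -1.01 ± 0.12 SE, adjusted p = 6.46e-06). Between Combo and WT, Cdh5 (log2 fold change 0.16, adjusted p = 0.127) and Pecam1, another of the 8 (-0.07, adjusted p = 0.514), did not differ detectably. The median log2 fold change of the 8 markers was -0.04 there. The part of endothelial cells in the levels of Lepr was not tested.

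**Figure D3:**
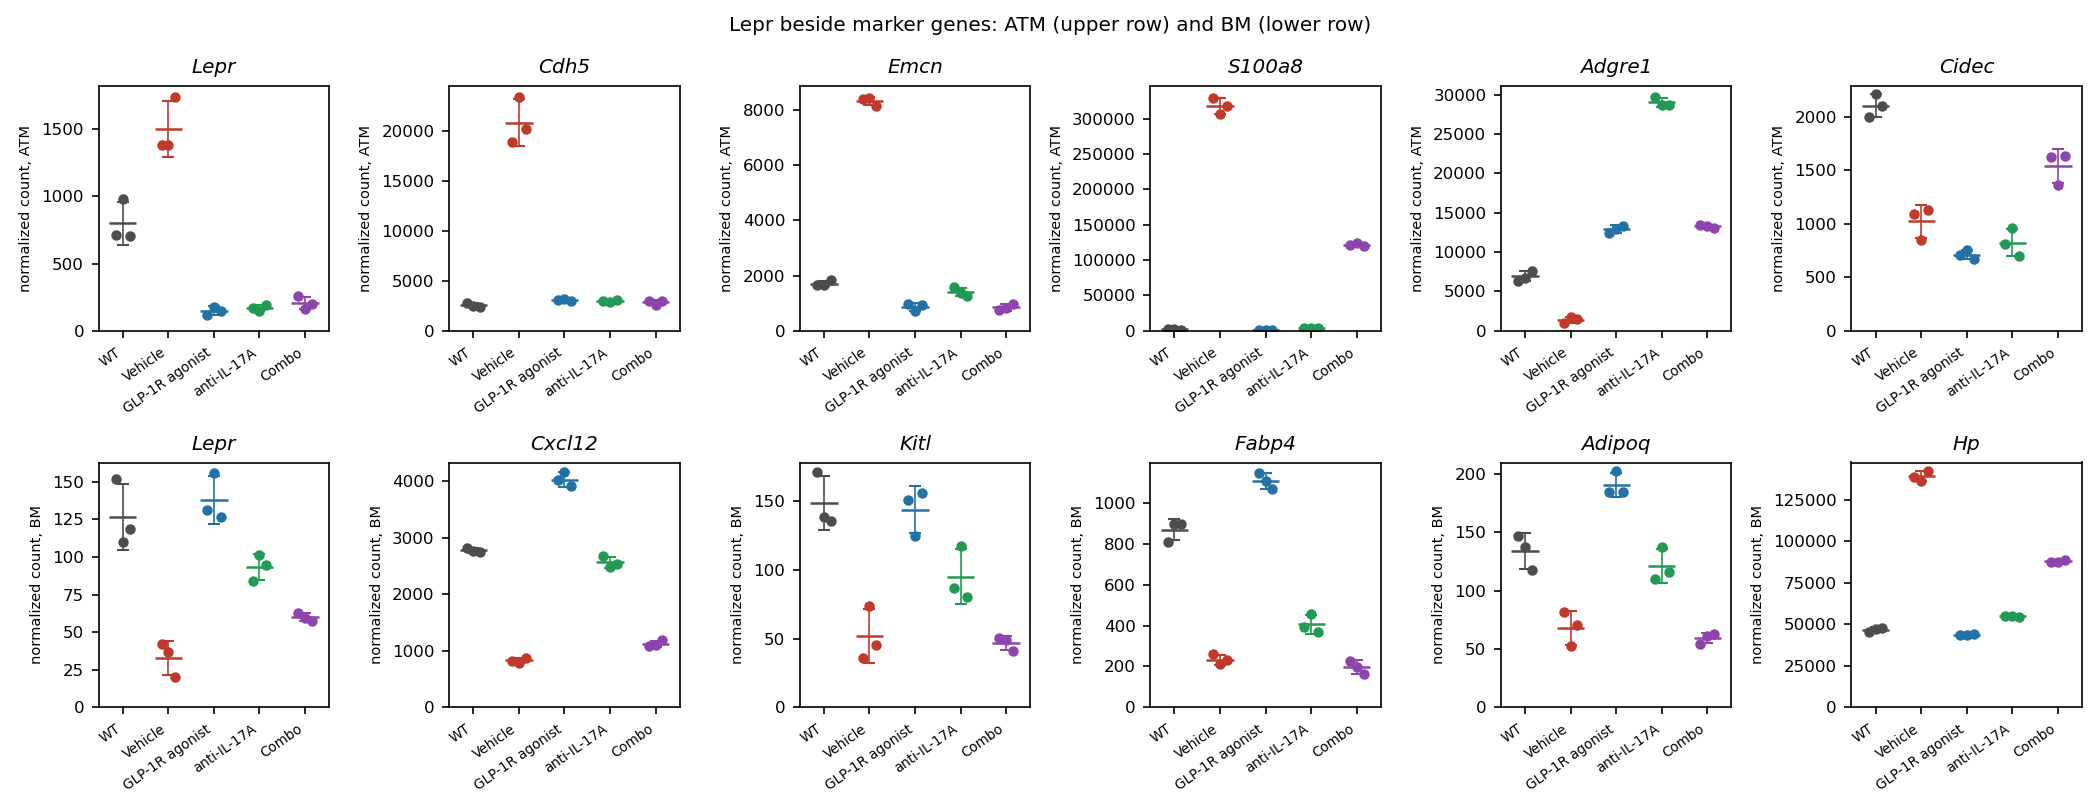
Normalized counts of Lepr beside marker genes (linear axes from 0; points are the 3 libraries per group, lines the means, bars the SD), with adipose cells in the upper row (Cdh5 and Emcn for endothelium, S100a8 for neutrophils, Adgre1 for macrophages, Cidec for fat cells) and marrow in the lower row (Cxcl12 and Kitl for reticular stroma, Fabp4, Adipoq and Hp). In marrow Lepr, Cxcl12 and Kitl are lower in Vehicle than in WT, whereas in adipose cells Lepr is highest in the Vehicle libraries, which also have the highest Cdh5 and the lowest Adgre1.

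With the GLP-1R agonist 1 of 9 members rose in adipose cells, Cfd, and 3 fell, Lepr, Retn and Lep, against 20.8% of all genes called higher and 10.9% lower. Retn was at 43.8, 36.6 and 45.4 (log2 fold change -1.48 ± 0.32 SE, adjusted p = 0.00118). Lep was at 468, 559.5 and 408 (log2 fold change -1.12 ± 0.32 SE, adjusted p = 0.00784) and Cfd at 215, 230.3 and 182 (log2 fold change 1.15 ± 0.34 SE, adjusted p = 0.0099). Both of the last calls rest on Vehicle replicate 2, which had the highest Lep and the lowest Cfd of its group: without it the log2 fold change was -0.77 for Lep (adjusted p = 0.0517) and 0.74 for Cfd (adjusted p = 0.0182), and Cfd was not called when only the libraries of both groups were fitted (adjusted p = 0.141). Adipor1, at 13103, 13397 and 13725, fell just short of the fold limit (log2 fold change -0.98 ± 0.03 SE, adjusted p = 1.06e-12) and passed it with DESeq2 (log2 fold change -1.03). Adipoq was at 288, 236 and 235 (log2 fold change -0.58 ± 0.17 SE, adjusted p = 0.0103), lower than in every other group, whereas in marrow it was highest with the same agonist; that difference between the tissues was not tested.

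With the anti-IL-17A antibody Cfd rose and Lepr, Rbp4, Nampt, Adipor2 and Adipor1 fell, 1 and 5 of 9 members against 22.4% and 13.1% of all genes. Rbp4 was at 27.3, 62.8 and 37.5, its lowest level (log2 fold change -1.90 ± 0.37 SE, adjusted p = 0.00041). Nampt fell to 3243, 2986 and 3199 (log2 fold change -1.18 ± 0.07 SE, adjusted p = 1.2e-09), and Cfd reached 291, 246 and 299 (log2 fold change 1.57 ± 0.34 SE, adjusted p = 0.000952). Adipor2 was at 802, 663 and 717 (log2 fold change -1.13 ± 0.13 SE, adjusted p = 1.51e-06) and Adipor1 at 12498, 12398 and 12458 (log2 fold change -1.08 ± 0.03 SE, adjusted p = 2.58e-13). Lep, at 569.8, 469.9 and 609, and Retn, at 67.3, 67.3 and 59.1, lay below all Vehicle libraries but under the fold limit (-0.92 and -0.86 on the log2 scale); without Vehicle replicate 1 both passed it, at -1.02 and -1.05, as Lep did without Vehicle replicate 3 at -1.12. Adipoq did not differ detectably from Vehicle (log2 fold change -0.03 ± 0.17 SE, adjusted p = 0.892, interval -0.39 to 0.33).

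Combo changed 3 of 9 members against Vehicle: Cfd rose, and Lepr and Nampt fell, against 14.1% of all genes called higher and 12.2% lower. Cfd was at 359, 289.8 and 317 (log2 fold change 1.77 ± 0.34 SE, adjusted p = 0.000411) and Nampt at 3183, 2843 and 3113 (log2 fold change -1.22 ± 0.07 SE, adjusted p = 9.35e-10). Lep, at 1149.8, 794 and 976, overlapped Vehicle (interval of the log2 difference -0.76 to 0.57) and was above the GLP-1R agonist group without overlap (log2 fold change 1.03, adjusted p = 0.0174). Retn, at 109.7, 149 and 146, also overlapped Vehicle and was above the GLP-1R agonist group (log2 fold change 1.68, adjusted p = 0.000612), as was Adipoq, at 389.6, 520.1 and 524 (log2 fold change 0.92, adjusted p = 0.000484). Among the fat cell markers Cidec and Car3 had the same order, at 1359.8 to 1634 and 5223 to 5902 in Combo against 674 to 751 and 1997 to 2203 with the GLP-1R agonist, but Fabp4 (36115 to 36751 in Combo, 40528 to 40914 with the agonist) and the summed level of all 18 markers (6804 to 7006 and 7150.2 to 7334 CPM) were lower in Combo. These single markers were chosen after their values were seen. Adipor1 was at 20800.0, 19759 and 20767, between Vehicle and the single treatments (log2 fold change -0.37 ± 0.03 SE, adjusted p = 1.92e-07).

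Set against WT, Combo adipose cells differed in 5 of 9 members, with Lep higher and Cfd, Rbp4, Lepr and Retn lower, where 7.08% of all genes were called higher and 14.5% lower. All but Lepr had been called in the same direction in Vehicle against WT. Lepr was above WT in Vehicle (log2 fold change 0.91, under the fold limit) and below WT in Combo (-1.95). Lep was 4.04-fold above WT (log2 fold change 2.01 ± 0.33 SE, adjusted p = 0.000136). Cfd was 9.13-fold below (log2 fold change -3.19 ± 0.33 SE, adjusted p = 9.98e-07), so that its rise over Vehicle left it far from the lean level. Rbp4 was 4.25-fold below WT (log2 fold change -2.09 ± 0.37 SE, adjusted p = 0.000257) and Retn 3-fold below (log2 fold change -1.58 ± 0.31 SE, adjusted p = 0.000762). Adipoq was 1.85-fold below (log2 fold change -0.89 ± 0.17 SE, adjusted p = 0.000518), which is under the fold limit. These comparisons use the same Vehicle or WT libraries more than once and are not independent of each other.

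**Figure D4:**
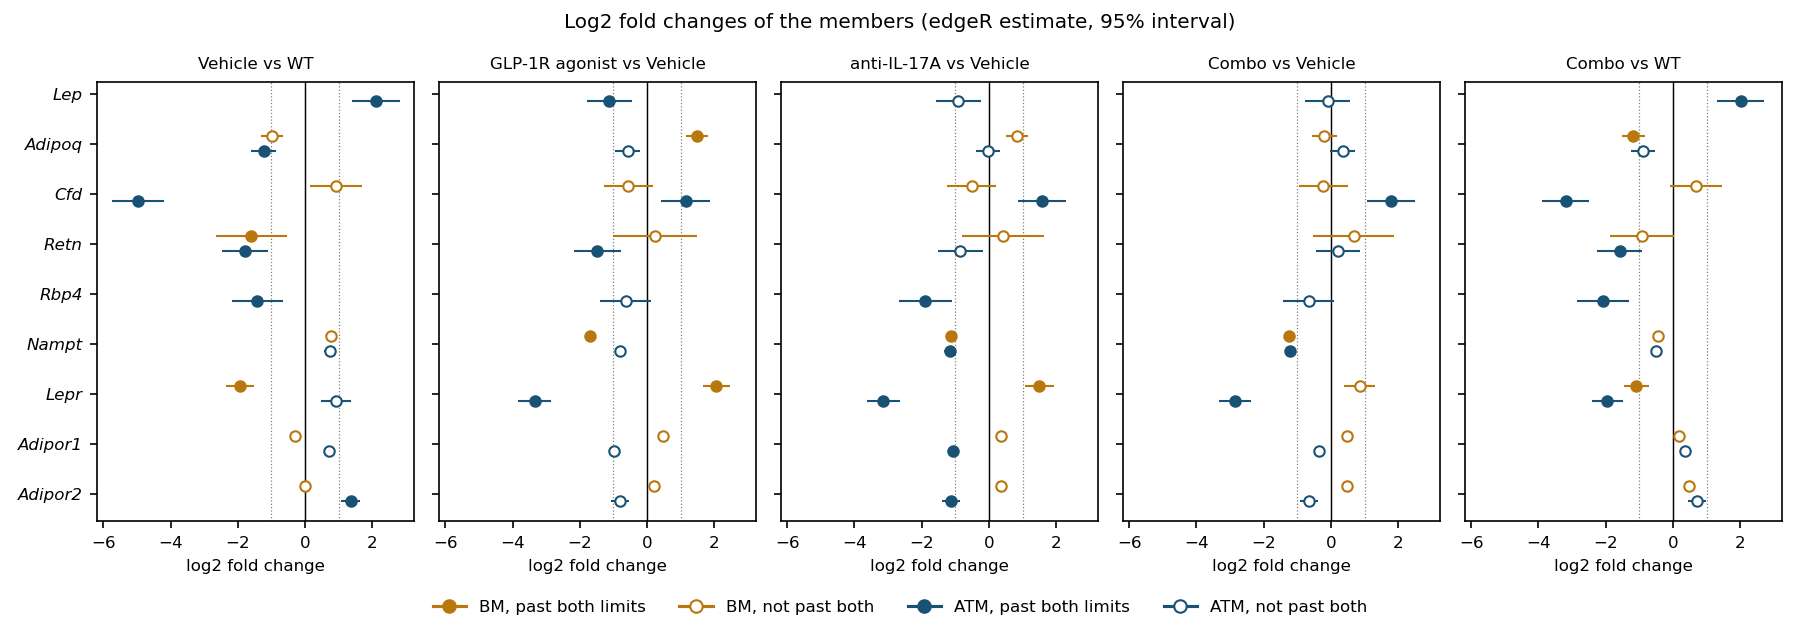
Log2 fold change of each member (points, edgeR) with its 95% interval (lines) in 5 comparisons, BM in orange and ATM in blue; filled points are past both the adjusted p and the fold limit (dotted lines at -1 and 1). Nampt has nearly equal values in both tissues in 4 of the 5 comparisons, while Lepr and Cfd lie on opposite sides of 0 in Vehicle against WT.

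Ordered by level, the groups differed in how far neighbours could be told apart. In marrow, Nampt fell from Vehicle over WT, the antibody and Combo to the GLP-1R agonist, and each neighbour differed from the next, the closest being the antibody and Combo (adjusted p = 0.0216). Lepr in marrow ran from the GLP-1R agonist and WT, which could not be told apart, over the antibody and Combo to Vehicle, each of these last 3 steps past the adjusted p. For Adipoq in marrow the GLP-1R agonist was above WT, WT and the antibody did not differ detectably (adjusted p = 0.374), and Vehicle and Combo did not either. In adipose cells Adipor1 was the one member with all 4 steps resolved, from Vehicle over Combo, WT and the GLP-1R agonist to the antibody. Cfd in adipose cells was resolved between WT and Combo and between the GLP-1R agonist and Vehicle, but Combo, antibody and GLP-1R agonist could not be told apart (adjusted p = 0.685 and 0.367). For Lep the Vehicle and Combo groups, and the antibody and GLP-1R agonist groups, were likewise not distinguishable (adjusted p = 0.863 and 0.705).

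Whether a member responded differently in the 2 tissues was tested as the difference of the log2 fold changes, ATM minus BM, in limma with voom weights. For Vehicle against WT, 4 of the 7 members in both tables were past an adjusted p of 0.05 and a difference of 1, against 28.4% of 13076 genes: Cfd (-6.16 ± 0.58 SE, adjusted p = 9.32e-12), Lepr (2.89 ± 0.30 SE, adjusted p = 8.87e-11), Adipor2 (1.37 ± 0.15 SE, adjusted p = 3.34e-10) and Adipor1 (1.02 ± 0.05 SE, adjusted p = 3.94e-21). Nampt had nearly the same change in both, 0.78 in BM and 0.73 in ATM (difference -0.05 ± 0.09 SE, adjusted p = 0.668). Adipoq, -0.98 and -1.23, was also lower in Vehicle in both (difference -0.22 ± 0.27 SE, adjusted p = 0.501). For Combo against Vehicle 3 of 7 members were past both limits, against 27.5% of all genes: Lepr (-3.72 ± 0.37 SE, adjusted p = 2.95e-11), Cfd (2.24 ± 0.58 SE, adjusted p = 0.00134) and Adipor2 (-1.08 ± 0.12 SE, adjusted p = 1.37e-09). Nampt again changed alike, -1.24 in BM and -1.22 in ATM (difference 0.05 ± 0.09 SE, adjusted p = 0.644). Lepr therefore moved in opposite directions in the 2 tissues in both comparisons.

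Other genes of the system were followed as fixed lists, read against the share of all genes called given above. Of the other adipokines and fat-derived cytokines, 17 of 26 were in the marrow table, of which 9 rose and 4 fell in Vehicle against WT (median log2 fold change 1.02), and 3 rose and 6 fell in Combo against Vehicle (median -0.45). Ccl2, a monocyte chemokine, went from 56.8 to 3054 normalized counts (5.74 ± 0.10 SE on the log2 scale). Retnlg, the resistin relative of mouse neutrophils, fell from 108691 to 16309.9 (-2.74 ± 0.02), and Agt, angiotensinogen, from 48.7 to 16.7 (-1.55 ± 0.33). In Combo against Vehicle Ccl2 (-5.83 ± 0.10) fell, while Retnlg (2.52 ± 0.02) and Angptl2, an angiopoietin-like secreted protein (1.87 ± 0.20), rose. Of 9 neutrophil markers, a list that includes Retnlg itself, 6 were called higher and none lower in the same comparison (median 1.26). S100a8 of that list did not change detectably (log2 fold change -0.007, adjusted p = 0.963). The part of neutrophils in the rise of Retnlg was not tested.

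In adipose cells 23 of these 26 were in the table, with 10 higher and 6 lower in Vehicle against WT (median 0.73) and 3 higher and 8 lower in Combo against Vehicle (median -0.62). Lcn2, a siderophore-binding protein of neutrophils and stressed fat, went from 1376 to 128319 (6.54 ± 0.09), and Itln1, omentin, from 3.69 to 86.5 (4.50 ± 1.15), a fold that rests on few counts in WT. Retnla, the resistin-like marker of alternatively activated macrophages, fell from 61185 to 1234 (-5.63 ± 0.07), and C1qtnf3, an adiponectin relative, from 457 to 23.3 (-4.29 ± 0.68). In Combo against Vehicle Ccl2 (-4.33 ± 0.06) and the cytokine Il6 (-4.04 ± 0.09) fell, and Angptl2 (2.80 ± 0.25) and C1qtnf3 (2.48 ± 0.65) rose. The neutrophil markers given above were also higher in Vehicle than in WT, 8 of 9 of them called. The macrophage markers were split, 5 of 12 lower and 3 higher. The part of these cells in the levels of Lcn2 and Retnla was not tested.

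The receptors of those factors came next. In marrow, 2 rose and 2 fell of 9 in Vehicle against WT (median -0.15): Cmklr1, the chemerin receptor (3.44 ± 0.11), and Ccrl2, a chemerin-binding receptor (3.30 ± 0.09), rose, and Aplnr, the apelin receptor (-2.39 ± 0.25), and Ccr2, the receptor of Ccl2 (-1.32 ± 0.08), fell. Combo against Vehicle reversed the first 3 (Cmklr1 -3.59 ± 0.12, Ccrl2 -4.27 ± 0.11, Aplnr 2.39 ± 0.25), with 1 higher and 2 lower. In adipose cells 4 rose and 2 fell of 12 in Vehicle against WT (median 0.56), Ccrl2 (2.77 ± 0.04) and the TNF receptor Tnfrsf1b (1.68 ± 0.05) among the first and Aplnr (-2.58 ± 0.27) and Ccr2 (-2.52 ± 0.13) the second. In Combo against Vehicle 1 rose, Ccr2 (3.95 ± 0.14), and 3 fell, with Ccrl2 (-2.16 ± 0.04) and Tnfrsf1a (-1.21 ± 0.05) the furthest.

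The leptin receptor's signalling genes were all 15 measured in both tissues. In marrow 3 rose and none fell in Vehicle against WT (median 0.16), and the inhibitors led: Ptpn1, the phosphatase that turns off JAK2 (1.30 ± 0.03), and Socs3 (1.26 ± 0.05), while Lepr itself fell. In adipose cells 2 rose and 2 fell (median -0.14): Ptpn1 (1.31 ± 0.07) and Stat3 (1.09 ± 0.06) rose, and Socs3 (-1.41 ± 0.04) and Irs1 (-2.79 ± 0.75), an insulin receptor substrate whose exons are 30.9% shared with another gene, fell. Socs3 was thus higher than in WT in Vehicle marrow and lower in Vehicle adipose cells. In Combo against Vehicle 1 marrow gene fell, Foxo1 (-1.15 ± 0.06), and in adipose cells Irs1 (1.98 ± 0.73) rose and Stat3 (-1.21 ± 0.06) fell.

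Downstream of the adiponectin receptors little moved in marrow, where Prkag2, an AMPK subunit, fell in Vehicle (-1.29 ± 0.07) and rose in Combo (1.32 ± 0.07), 1 gene of 16 each time. In adipose cells 1 rose and 6 fell of 19 in Vehicle against WT (median -0.29). Ero1l, an oxidase of the endoplasmic reticulum, rose (1.05 ± 0.10), and Prkag2 (-2.63 ± 0.31) and Ppargc1a, the coactivator of mitochondrial genes (-4.38 ± 1.12, with a mean of 83.3 to 3.96 normalized counts from WT to Vehicle), fell. The low Vehicle level makes the fold of Ppargc1a imprecise. Combo against Vehicle had 4 higher and 3 lower, with Ppargc1a (3.13 ± 1.09) and Prkag2 (1.95 ± 0.30) higher and Prkab2 (-1.69 ± 0.28) and Sirt1 (-1.23 ± 0.18) lower.

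Around Nampt, the other enzymes of NAD did not follow as a group. In marrow 1 rose and 1 fell of 17 in Vehicle against WT (median -0.03): Cd38, which consumes NAD, rose (1.27 ± 0.04), and the kinase Nadk fell, from a mean of 13195 to 6592 normalized counts, the latter being the 1 gene that rose in Combo (1.09 ± 0.02). In adipose cells 2 rose and 5 fell of 18 (median 0.19), among them Bst1, a relative of Cd38 (3.01 ± 0.11), and Qprt, of the tryptophan route (1.57 ± 0.39), upward and Sarm1, an NAD-cleaving enzyme (-4.48 ± 1.08), and Nadk2 (-1.71 ± 0.32) downward, Sarm1 from a mean of 57 to 2.49 normalized counts. In Combo against Vehicle 5 rose and 4 fell (median 0.05), with Sarm1 (5.09 ± 1.10) and Parp1 (1.89 ± 0.21) higher and Nmnat2 (-2.05 ± 0.69) and Bst1 (-1.43 ± 0.10) lower.

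The retinol genes that surround Rbp4 were measured for 9 of 20 in marrow, where 1 rose, the retinal dehydrogenase Aldh1a2 (1.85 ± 0.36), and 1 fell, the receptor Rarg (-1.06 ± 0.07), in Vehicle against WT, and Aldh1a2 fell in Combo (-1.90 ± 0.37). In adipose cells 1 rose and 6 fell of 17 (median 0.07). Rbp7, a retinol-binding protein of endothelium, rose (1.91 ± 0.12), and Aldh1a3, another retinal dehydrogenase (-4.42 ± 0.13), fell. Combo against Vehicle reversed Aldh1a3 (3.06 ± 0.13) and Rbp7 (-2.73 ± 0.12), 1 gene each way.

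The last list was the alternative complement pathway, which Cfd starts. In marrow 3 rose and 4 fell of 10 in Vehicle against WT (median -0.13). Factor B, Cfb, the substrate of adipsin, went from 139 to 29154 normalized counts (7.72 ± 0.08), though 79.5% of its exonic bases are shared with an overlapping gene model so that the reads of both cannot be told apart, and C3ar1, the receptor of the C3a fragment, rose (3.92 ± 0.12). The inhibitor Cd55 (-1.77 ± 0.06) fell. In adipose cells 3 rose and 5 fell of 12 (median -0.01): Cfb (2.61 ± 0.04) and the protease Masp1 (2.47 ± 0.48) rose while the macrophage complement receptor Vsig4 (-2.96 ± 0.70) fell. Combo against Vehicle went the other way in both tissues for Cfb (-8.25 ± 0.08 in BM and -2.31 ± 0.04 in ATM), with 4 higher and 2 lower of 10 in BM and 5 higher and 2 lower of 12 in ATM. In the Vehicle adipose cells the substrate Cfb was thus at its higher and the protease Cfd at its lower level relative to WT.

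Genes whose level tracked a member most closely over the 15 libraries of a tissue were listed as a description, since the libraries share groups. In marrow Nampt was closest to Rtp4 (r = 0.997) and Ms4a4c (r = 0.996), of which Rtp4 is interferon-induced. Lepr was closest to Igf1 (r = 0.973), Slc16a1 (r = 0.97) and Hpgd (r = 0.969), Adipoq to Itgad (r = 0.963), Lhfp (r = 0.954) and Abhd15 (r = 0.951) and Retn, at its low counts, to Zfp28 (r = 0.831), Decr2 (r = 0.803) and Higd2a (r = 0.8). In adipose cells Adipoq was closest to Car3 (r = 0.957), Retn (r = 0.941) and Wbscr27 (r = 0.933), and Retn to Slc38a5 (r = 0.958), Cav1 (r = 0.947) and Car3 (r = 0.945), so that both shared the fat cell enzyme gene Car3. Cfd was closest to Rogdi (r = 0.966), Prps2 (r = 0.966) and Myl9 (r = 0.963), Rbp4 to Nov (r = 0.959), Adamtsl4 (r = 0.947) and Ehf (r = 0.943) and Lep to Snrpa1 (r = 0.951), Lcp2 (r = 0.917) and Rbm3 (r = 0.904). Lepr was closest to S100a16 (r = 0.975), Proser2 (r = 0.975) and Plac8 (r = 0.969), Nampt to Cnn3 (r = 0.987), Ms4a4d (r = 0.984) and Smtn (r = 0.984), Adipor1 to Sprr2f (r = 0.987), Ppp1r3b (r = 0.985) and Mettl9 (r = 0.978) and Adipor2 to Stx11 (r = 0.969), Ddit4 (r = 0.964) and Klf13 (r = 0.957).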

How the data were processed

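Gene counts of 30 unstranded poly(A) RNA-seq libraries, 15 from whole BM and 15 from sorted F4/80+ adipose cells, were taken as deposited. Alignment by the authors used STAR 2.7.2a and the mm10 build, and featureCounts 2.0.1 gave counts per GENCODE gene without strand, so that reads of overlapping or antisense genes cannot be told apart. The deposited counts are raw whole numbers, and lowly expressed genes had been left out before deposit (the smallest gene total was 55 in BM and 54 in ATM). Groups came from the sample labels. Per the labels the 3 libraries of a group are biological replicates from separate mice. No pair of libraries agreed within sampling noise, so none is a copy of another. In BM, WT replicate 1 stood apart from WT replicates 2 and 3. Its chi-square per degree of freedom (near 1 for counting error alone) was 34.8 and 26.6 against them. The other BM pairs within a group ranged from 2.02 to 4.21. This library enters every BM comparison with WT. The spread between libraries of a group beyond counting error (edgeR's common coefficient of variation) was 3.51% in BM and 32.5% in ATM. The p-values refer to this spread between libraries, and whether it is as wide as that between mice was not tested.

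Each tissue was fitted on its own with all 5 groups in edgeR 4.0.16 (TMM scaling, quasi-likelihood F test, R 4.3.3), with Benjamini-Hochberg adjustment over all 13353 or 17059 genes; filterByExpr removed 0 of them. Calls needed an adjusted p under 0.05 and an absolute log2 fold change above 1. The difference between tissues was fitted in limma 3.58.1 (voom with quality weights, 13076 genes). RPKM used exon lengths of GENCODE M21 on the same build. Library totals of 24876074 to 45300263 counts set the counting error, which is largest for Retn and Cfd in BM. Counts were also simulated for Vehicle against WT, and recovery was judged by the adjusted p alone, without the fold limit. By that measure edgeR recovered 91 of 100 genes changed 2-fold and 99 of 100 changed 4-fold in BM (13353 genes), and 46 and 76 of 100 in ATM (17059 genes). The median estimate for the 2-fold genes was 0.994 in BM and 0.983 in ATM, under the fold limit. These shares are therefore not the recovery of the calls used here. Alternatives were DESeq2 1.42.0, its size factors, other filters, no fold limit, a replicate block, the 2 groups alone and leaving out each library.

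The members, gene lists and tests were chosen with earlier results of these data known. Within each pathway list the text names the 2 called genes with the largest rise and the 2 with the largest fall among those with a mean of at least 10 counts in Vehicle against WT and Combo against Vehicle, and for each member called in a tissue the 3 genes with the highest Pearson correlation of log2 CPM (prior count 2). Some genes that this rule names are not reported here. Marker genes of other cell types were picked to stand beside a member.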

Additional observations from a re-analysis of the deposited data

Results flagged for a closer look

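The change of 4 members between Vehicle and WT differed between the tissues when the difference itself was tested in limma, with 3 libraries per group and tissue. Of all 13076 genes tested, 28.4% passed the same limits. As ATM minus BM log2 fold changes, Cfd was at -6.16, Lepr at 2.89, Adipor2 at 1.37 and Adipor1 at 1.02. Cfd was lower in all 3 Vehicle adipose libraries than in every WT one, while its BM groups overlapped at 9 to 35 raw counts. Lepr was lower in all 3 Vehicle marrow libraries and higher in all 3 Vehicle adipose libraries than in every WT library of that tissue.

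For Combo against Vehicle, the difference between tissues was -3.72 for Lepr, 2.24 for Cfd and -1.08 for Adipor2, where 27.5% of all genes passed the same limits. All 3 Combo libraries lay below every Vehicle library for Lepr in ATM and above every Vehicle library in BM. The Vehicle adipose libraries, which enter both contrasts, had the lowest Adgre1 and the highest S100a8 and Cdh5 of all adipose libraries, and the part of these cell types in the differences was not tested.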

How the results depend on the processing

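The number of members called was recomputed under each alternative, and 131 of 144 recomputed counts stayed within 1.5 times the reported one. Without a limit on the fold change the counts were 6, 5, 5, 4 and 5 in BM and 9, 8, 8, 5 and 9 in ATM for Vehicle against WT, the GLP-1R agonist, the antibody and Combo against Vehicle, and Combo against WT, where 72.8 to 76.6% of all genes in BM and 41.1 to 58.1% in ATM passed the same adjusted p. Requiring 10 counts in every library removed Cfd and Retn from the BM table, which left 1 member called in Vehicle against WT. Leaving out single libraries gave 2 to 4 calls in BM Vehicle against WT, 1 to 2 in BM Combo against Vehicle (2 without Vehicle replicate 1) and 2 to 4 in ATM GLP-1R agonist against Vehicle (2 without Vehicle replicate 2).

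Of the single fold changes, 920 kept their direction and stayed called or uncalled by the 2 limits together. A further 15 became called, 4 were no longer called and 8 turned sign, all 8 uncalled. All were against Vehicle. Over the fits without 1 library, Retn in BM ran from -0.17 (without GLP-1R agonist replicate 2) to 0.42 with the GLP-1R agonist and from -0.32 (without antibody replicate 2) to 0.90 with the antibody, Cfd in BM Combo from -0.44 to 0.13 (without Vehicle replicate 3), and Lep in ATM Combo from -0.29 to 0.26 (without Vehicle replicate 2; also 0.03 without Combo replicate 2). Adipoq in ATM with the antibody ran from -0.13 to 0.045 (without antibody replicate 2; also 0.0078 without Vehicle replicate 1) and was 0.0108 when 10 counts were required in every library; the cause was not tested. DESeq2 or its size factors changed one call, Adipor1 in ATM with the GLP-1R agonist. Between TMM and DESeq2 size factors the median over all genes moved by at most 0.05 on the log2 scale.

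Replicate numbers are shared by the groups, but same-numbered libraries did not deviate together (r from -0.0242 to 0.0617 over 30 pairs). With the replicate block the counts of members called were 2, 3, 2, 1 and 2 in BM and 6, 4, 6, 3 and 5 in ATM, as without it, and 15 and 18 neighbouring pairs passed, also as without it; these neighbour checks, and the one with DESeq2 size factors (15 and 17 pairs), were chosen after seeing the data. An edgeR interaction over 30 libraries gave 4 and 3 members that differed between tissues, as limma did. Cfd and Retn in BM rest on 2 to 35 counts per library, and their detection limit at this depth was not measured.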
